A study of Mus musculus with 15 samples.

Results

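The genes described here are the protein-coding mouse genes named Zfp followed by a number (zinc finger proteins) that were expressed in MPC5 podocytes, together with the N6-methyladenosine (m6A) peaks assigned to them. A gene was taken when its type in the deposited RNA table included protein coding and its FPKM (fragments scaled to transcript length and library depth) averaged at least 2 over the 3 libraries. That left 117 of 339 protein-coding genes with such a name, in a table of 25012 genes, and 76 of the 222 left out averaged at least 1 FPKM. Just inside the minimum were Zfp772 at a mean of 2.04 FPKM, Zfp51 at 2.02 and Zfp365 at 2.01, and just outside were Zfp867 at 1.98, Zfp629 at 1.97 and Zfp568 at 1.97. The genes were chosen by RNA level, so their level is a description and not a finding. Chromosome 7 held 26 of the 117 genes and chromosome 8 held 14.

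Most Zfp proteins carry C2H2 zinc fingers, short loops folded around a zinc ion that read DNA sequence, and the largest branch adds a KRAB domain. KRAB zinc fingers recruit the corepressor Trim28, which brings Setdb1 and heterochromatin proteins to retroelements and imprinted regions. A smaller set works on RNA, the ribosome or the spindle in place of DNA. m6A is a methyl mark on adenosine that the Mettl3 and Mettl14 complex writes, mainly in long internal exons, near stop codons and in 3′ UTRs, and that reader proteins use to steer the decay and translation of the transcript.

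The study profiled RNA and m6A in MPC5, a single immortalised clone of mouse podocytes, the epithelial cells of the kidney filter. The 15 samples formed 3 conditions of 5. The first received a virus with an shRNA against METTL3 and then glucose, labelled as 25 µmol/L, for 72 hours. The second received that virus alone, and the control was wild-type cells in standard medium, for which the labels name no virus. Glucose was therefore never given without the shRNA. That unit is the labels' own. Each condition had 2 input samples, 2 from an m6A pull-down and 1 of neither stated kind. All samples carry the same batch label.

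RNA values came as 1 library per condition, of 52807701 counts with glucose, 53655982 with sh-METTL3 and 54282720 for the control. Mettl3 itself stood at 2.49, 2.42 and 2.34 FPKM in that order, so it was not lower in either library labelled as a knockdown, and "sh-METTL3" is used below as the label of a library, not as a measured loss of Mettl3. Without replicate libraries no difference in RNA has a replicate check or a p-value, and "higher" and "lower" describe these libraries. Intervals given on ratios of counts cover counting error only. FPKM values summed to 213144 with glucose, 206820 with sh-METTL3 and 265843 in the control, so the scale was not the same in the 3 libraries. Of 10 podocyte markers 7 averaged at least 1 FPKM, with Wt1, a defining one, at 0.245, 0.0423 and 0.654 FPKM. The markers' summed level was 161, 164 and 82.3 FPKM with glucose, with sh-METTL3 and in the control, and 7 tubular markers summed to 87.7, 172 and 58.9 FPKM. Endothelial markers summed to 1.29, 0.575 and 0.873 FPKM, with Pecam1 and Cdh5 under 0.1 in every library, and leukocyte markers to 10.8, 11.0 and 5.15 FPKM, with Ptprc under 0.1. The part of these shifts in the values below was not tested. Fewer cells with a transcript and less transcript per cell cannot be told apart in such bulk samples.

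The Zfp genes together took 0.516% of all counts with glucose and 0.643% with sh-METTL3, against 0.378% in the control. Their median level was 4.04, 4.55 and 2.71 FPKM in that order. Of the 117 genes, 2 lay under 1 FPKM with glucose and 0 with sh-METTL3, against 14 in the control. A gene under 1 FPKM in the control met the minimum mean only through the libraries labelled sh-METTL3. These counts were therefore set in part by how the genes were chosen, and they were not made for other protein-coding genes.

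The 10 genes of highest mean level were Zfp91, Zfp36, Zfp740, Zfp207, Zfp598, Zfp706, Zfp106, Zfp358, Zfp664 and Zfp703. Zfp740 had 23.1 FPKM with glucose, 22.9 with sh-METTL3 and 23.5 in the control, so its 3 libraries differed little. Zfp207, also called BuGZ, a protein of the mitotic spindle, had 18.1, 21.7 and 21.1 FPKM in the same order. Zfp706, which restrains Klf4 in mouse embryonic stem cells, had 15.9, 12.9 and 17.3 FPKM. The ratio farthest from 0 among these 3 genes, on the scale of log2 (FPKM + 1), was -0.40, for Zfp706 in sh-METTL3 over control.

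**Figure D1:**
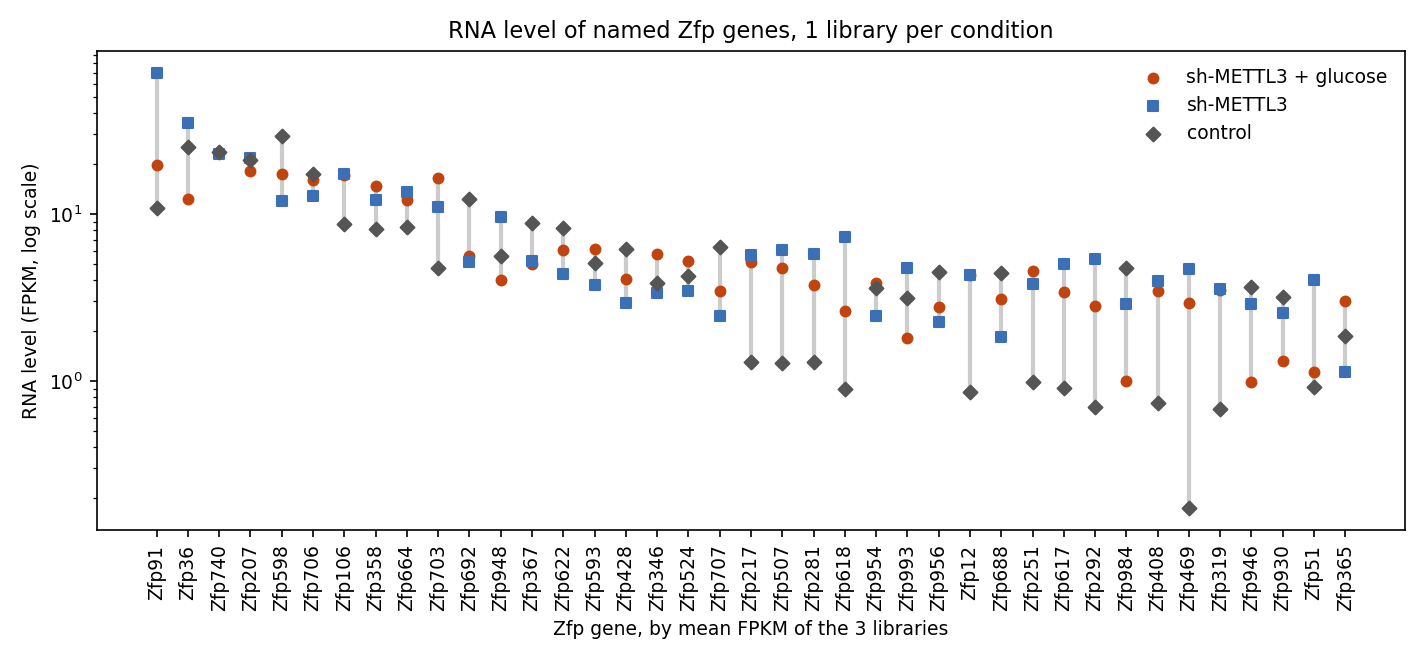
RNA level in FPKM on a log axis for 39 Zfp genes, which are the 10 of highest mean and the 8 highest and 8 lowest in each comparison of libraries; circles are sh-METTL3 with glucose, squares sh-METTL3, diamonds the control, and grey bars span the 3 libraries. Zfp740 lies at about 1 level in all libraries, while Zfp469 lies at 4.66 FPKM with sh-METTL3 and 0.173 FPKM in the control.

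Glucose against control sets cells that had both the virus and glucose against cells with neither. Of the 117 genes 23 were at least 2-fold higher on the scale of log2 (FPKM + 1), 3 were at least 2-fold lower and 91 lay between. Over all 9694 genes at the same minimum, 8.67% were higher and 3.49% lower by that measure. Among the 8273 other protein-coding genes the shares were 9.31% and 1.92%, against 19.7% and 2.56% of the Zfp genes. At a minimum of 5 FPKM the larger share was not seen: 2 of 37 Zfp genes (5.41%) were higher, against 8.08% of other protein-coding genes. The median log2 ratio was 0.39 for the Zfp genes and 0.20 for the other protein-coding genes, and 83 of 117 Zfp genes were above 0. Medians of other zinc finger families were 0.58 for 18 Zbtb genes, 0.63 for 5 Zkscan, 0.72 for 5 Zscan and 0.90 for 11 Klf genes, so a median above that of other genes was not particular to the Zfp names. All genes tested had a median of 0.13, and with that shift subtracted 15 Zfp genes were higher and 4 lower. Scaling the counts by the median of ratios gave 30 higher and 8 lower. Among genes under a mean of 10 FPKM the medians were 0.39 for Zfp genes and 0.31 for other protein-coding genes.

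The highest ratio belonged to Zfp469, whose human counterpart is altered in brittle cornea syndrome. It had 2.92 FPKM with glucose, 4.66 with sh-METTL3 and 0.173 in the control, from 3035, 4966 and 185 counts. The log2 ratio of (FPKM + 1) was 1.74 with glucose over control, and the ratio of count shares was 16.9 (14.5 to 19.7). Both libraries labelled sh-METTL3 stood far above the control at this gene. Zfp703, a transcriptional corepressor, had 16.5, 10.9 and 4.77 FPKM, a count ratio of 3.50 (3.29 to 3.72) with glucose over control. Among KRAB genes Zfp12 had 4.34, 4.33 and 0.857 FPKM and Zfp251 had 4.55, 3.82 and 0.991 FPKM. Their log2 ratios of (FPKM + 1), glucose over control, were 1.52 and 1.48.

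Zfp217 is a C2H2 factor that, in mouse embryonic stem cells, binds METTL3 and restrains m6A. It had 5.19 FPKM with glucose and 5.66 with sh-METTL3, against 1.31 in the control. The count ratio of glucose over control was 4.00 (3.67 to 4.36), and the glucose and sh-METTL3 libraries were close to each other. Zfp319, Zfp408 and Zfp507 completed the 8 highest, with log2 ratios of 1.42, 1.37 and 1.32.

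Among the 8 lowest were the KRAB genes Zfp984, Zfp946 and Zfp930. Zfp984 had 0.999 FPKM with glucose, 2.90 with sh-METTL3 and 4.76 in the control, a log2 ratio of -1.53 for glucose over control. Zfp946 had 0.983, 2.89 and 3.64 FPKM, a log2 ratio of -1.23, and Zfp930 had 1.31, 2.56 and 3.18 FPKM, a log2 ratio of -0.86. In all 3 the sh-METTL3 library lay between the others. Zfp36, or tristetraprolin, binds AU-rich elements and speeds the decay of cytokine mRNAs. It had 12.3 FPKM with glucose, 35.2 with sh-METTL3 and 25.1 in the control, from 3482, 10179 and 7224 counts. Its count ratio of glucose over control was 0.495 (0.476 to 0.516), and its log2 ratio of -0.97 stopped short of the 2-fold line. Zfp692, Zfp598, Zfp707 and Zfp367, the rest of the 8 lowest, had log2 ratios of -1.0, -0.73, -0.72 and -0.71.

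**Figure D2:**
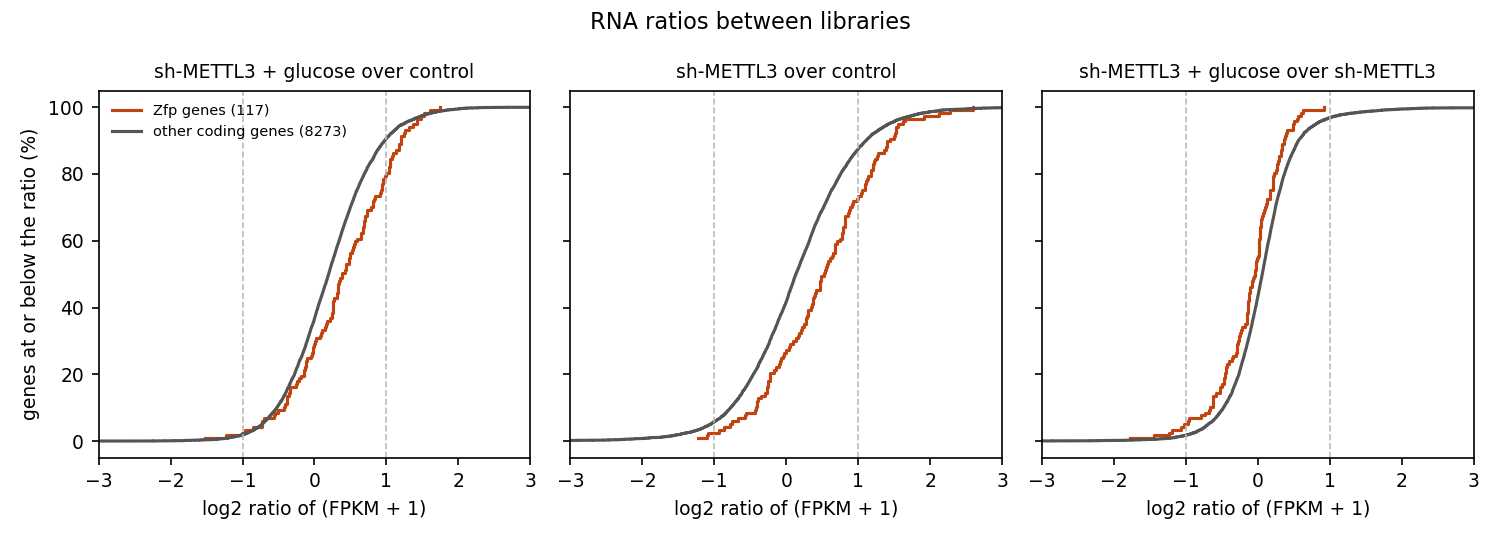
Cumulative share of genes (vertical axis, %) at or below each log2 ratio of (FPKM + 1) (horizontal axis) for 117 Zfp genes and 8273 other protein-coding genes, in the 3 comparisons of libraries; dashed lines mark the 2-fold limits. The Zfp curve lies to the right of the other in both comparisons with the control, with medians of 0.39 and 0.53 against 0.20 and 0.13, and slightly to its left for glucose over sh-METTL3, with medians of -0.04 and 0.06.

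For sh-METTL3 against the control, 31 Zfp genes were at least 2-fold higher, 3 were lower and 83 lay between. Over all genes tested the shares were 11.7% higher and 8.42% lower, and over other protein-coding genes 12.5% and 5.85%. At a minimum of 5 FPKM, 4 of 37 Zfp genes (10.8%) were higher, against 11.5% of other protein-coding genes. The median log2 ratio was 0.53 for the Zfp genes and 0.13 for the other protein-coding genes. Among genes with a mean under 10 FPKM the medians were 0.54 and 0.25. Among other protein-coding genes within the Zfp genes' quartiles of counts per FPKM, a stand-in for transcript length, the median was 0.17. Other zinc finger families had medians of 0.57 for 18 Zbtb genes, 0.75 for 5 Zkscan, 1.24 for 5 Zscan and 0.34 for 11 Klf genes. A median above that of other genes was again not particular to the Zfp names. The comparisons with the control share that 1 library, so their likeness is not independent.

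Zfp91 had the highest ratio. It encodes a ubiquitin ligase that acts on NIK, a kinase of the noncanonical NF-kB pathway, and had 19.8 FPKM with glucose, 70.3 with sh-METTL3 and 10.8 in the control. Its values are uncertain, because a further gene ID of that name on the same strand of chromosome 19 runs through both Zfp91 (12767020 to 12796126) and Cntf, and Cntf, a cytokine gene, had 2.91, 51.9 and 0.783 FPKM. Zfp91 was the only Zfp gene here with such a same-strand overlap. Zfp618, a partner of the DNA methylation reader Uhrf2, had 2.61 FPKM with glucose, 7.26 with sh-METTL3 and 0.900 in the control, a count ratio of 8.19 (7.57 to 8.87) for sh-METTL3 over control. Zfp292 had 2.83, 5.40 and 0.695 FPKM, a count ratio of 7.90 (7.24 to 8.63). In both genes the glucose library stood between the others. Zfp618, Zfp292 and Zfp469 met the minimum mean only through the sh-METTL3 library. Their place among the highest here was therefore set in part by how the genes were chosen. Zfp281, a factor of pluripotent cells, had 3.77, 5.73 and 1.30 FPKM, and its log2 ratio for sh-METTL3 over control was 1.55. Zfp148, also called ZBP-89, had 3.92, 6.06 and 2.13 FPKM, again highest with sh-METTL3. The remaining genes of the 8 highest were Zfp469 at 2.27, Zfp617 at 1.66, Zfp507 at 1.62 and Zfp217 at 1.53.

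The lowest ratio was that of Zfp598, the ubiquitin ligase that marks collided ribosomes. It had 17.4 FPKM with glucose, 12 with sh-METTL3 and 29.4 in the control, from 5498, 3897 and 9511 counts. The count ratio of sh-METTL3 over control was 0.415 (0.399 to 0.430) and the log2 ratio -1.23. Zfp622, a maturation factor of the large ribosomal subunit, had 6.06, 4.38 and 8.23 FPKM, with a log2 ratio of -0.78. Both were lower in the sh-METTL3 library than in the glucose library. Zfp692 had 5.62, 5.17 and 12.2 FPKM and the KRAB gene Zfp707 had 3.45, 2.45 and 6.35 FPKM, with log2 ratios of -1.10 and -1.09 for sh-METTL3 over control. The KRAB genes Zfp688 and Zfp956 stood at -0.94 and -0.76, Zfp428 at -0.87 and Zfp367 at -0.67.

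The comparison of glucose with sh-METTL3, both labelled as knockdowns, sets added glucose apart. No Zfp gene was at least 2-fold higher (0 of 117), 6 were lower and 111 lay between, against 2.96% higher and 1.85% lower over all genes and 3.08% and 1.8% over other protein-coding genes. The 6 were Zfp91, Zfp36, Zfp51, Zfp618, the KRAB gene Zfp948 and Zfp993, with log2 ratios of -1.78, -1.44, -1.23, -1.19, -1.07 and -1.03. For Zfp36 the count ratio of glucose over sh-METTL3 was 0.348 (0.334 to 0.361). Zfp51 had 1.13 FPKM with glucose, 4.01 with sh-METTL3 and 0.920 in the control. Zfp51 and Zfp618 met the minimum mean only through the sh-METTL3 library. Their place among the 6 was therefore set in part by how the genes were chosen. Zfp946 and Zfp984 followed at -0.97 and -0.96. Scaling the counts by the median of ratios gave 1 higher and 11 lower. The median was -0.04 for the Zfp genes and 0.06 for the other protein-coding genes.

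At the high end Zfp365 had 3.02 FPKM with glucose, 1.13 with sh-METTL3 and 1.86 in the control, a log2 ratio of 0.92 for glucose over sh-METTL3. Zfp346, which binds double-stranded RNA, had 5.77, 3.37 and 3.84 FPKM and a log2 ratio of 0.63. Zfp593, another factor of large-subunit maturation, had 6.19, 3.74 and 5.06 FPKM and a log2 ratio of 0.60. In all 3 the glucose library was the highest. Zfp703, Zfp688, Zfp598, Zfp954 and Zfp524 lay between 0.49 and 0.55.

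A list of Zfp proteins that work on RNA, ribosomes or the spindle held 11 tested genes, 10 of them among the 117 and 1, Zfp385a, outside the naming rule. In it 1 gene was higher and 0 lower with glucose over control, 1 higher and 1 lower with sh-METTL3 over control, and 0 higher and 1 lower with glucose over sh-METTL3. A share of 9.09%, for 1 gene of 11, is near the 8.67% and 11.7% of all genes that were higher over the control. Lower genes were 8.42% of all genes with sh-METTL3 over control and 1.85% with glucose over sh-METTL3. The latter is below 9.09%, which rests on 1 gene. Its medians were -0.12, -0.15 and 0.29. The higher gene in both comparisons with the control was Zfp830, a protein of splicing and DNA repair, at 5.36 FPKM with glucose, 7.10 with sh-METTL3 and 2.07 in the control. The lower genes were Zfp598 with sh-METTL3 over control and Zfp36 with glucose over sh-METTL3, both described above.

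By the KEGG orthology entries in the deposited table, 35 of the 117 genes are KRAB proteins, 2 are KRAB and SCAN proteins, 1 is a SCAN protein and 79 have neither entry. Here "KRAB gene" means a gene with such an entry. The entries were not checked against protein sequences, so genes without a KRAB entry may still encode that domain. The 35 KRAB genes without SCAN counted 6 higher and 2 lower with glucose over control, 6 higher and 1 lower with sh-METTL3 over control, and 0 higher and 1 lower with glucose over sh-METTL3. For the other 82, which include the 2 genes with KRAB and SCAN entries, those counts were 17 and 1, 25 and 2, and 0 and 5. Medians of the 35 were 0.32, 0.47 and 0.01, and of the other 82 genes 0.49, 0.56 and -0.09. No test separates these groups, because there is 1 library per condition.

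Zfp445 carries KRAB and SCAN entries and, with Zfp57, keeps genomic imprints. It had 4.61 FPKM with glucose, 5.75 with sh-METTL3 and 1.64 in the control, while Zfp57 had 3.24, 3.71 and 2.39 FPKM. Log2 ratios over the control were 1.09 and 1.35 for Zfp445 and 0.33 and 0.48 for Zfp57, with glucose and with sh-METTL3. Zfp445 was thus past 2-fold in both libraries and Zfp57 in neither. Of 19 tested genes of the KRAB corepressor and heterochromatin machinery, 1 was higher and 0 lower with glucose over control. With sh-METTL3 over control 2 were higher and 0 lower, and with glucose over sh-METTL3 0 passed 2-fold either way. The shares higher over the control, 5.26% and 10.5%, are near the 8.67% and 11.7% of all genes. Trim28, the corepressor itself, had 66.7 FPKM with glucose, 76.4 with sh-METTL3 and 82.8 in the control. Setdb1, its histone methyltransferase partner, had 8.67, 10.6 and 4.44 FPKM, and Morc2a, a silencing ATPase, had 9.63, 10.1 and 2.91 FPKM. In FPKM, Trim28 lay below the control and Setdb1 above it, though the log2 ratios of Trim28 were only -0.31 and -0.11. The FPKM scale was not the same in the 3 libraries.

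Peaks of m6A were nearly universal on the Zfp genes. The deposited lists, 1 per condition, held at least 1 peak for 115 of 117 genes (98.3%) with glucose, 112 (95.7%) with sh-METTL3 and 110 (94.0%) in the control. Among other protein-coding genes the shares were 89.7%, 81.8% and 80.4%, and among all protein-coding genes at the minimum 89.8%, 82% and 80.6%. Wilson intervals for the Zfp shares were 94.0% to 99.5%, 90.4% to 98.2% and 88.2% to 97.1%, which treat genes as independent and cover no spread between samples. Peaks of Zfp genes numbered 378, 328 and 304, or 3.23, 2.80 and 2.60 per gene, against 2.19, 1.78 and 1.64 per other protein-coding gene. The higher number per gene held among genes under a mean of 10 FPKM, at 3.28, 2.88 and 2.63 per Zfp gene against 2.37, 1.99 and 1.81 per other gene. How the lists combined the 2 pulled-down samples is not stated, so peaks could not be compared between replicates.

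The lists differ in statistical strength as well as in number. The median peak of a Zfp gene had a −log10 p of 5.86 in the glucose list, 18.9 in the sh-METTL3 list and 20.3 in the control list, against 8.18, 15.1 and 14.7 for other protein-coding genes. An adjusted p under 0.05 was reached by 81.2%, 90.9% and 90.8% of the Zfp peaks. Of the 304 control peaks 66 were met by 2 or more glucose peaks, and of the 378 glucose peaks 48 were met by 2 or more control peaks. For other protein-coding genes these were 1224 of 13597 control peaks and 1292 of 18090 glucose peaks. Covered length, introns inside peaks included, came to 8208, 7264 and 7992 bp per Zfp gene. Per other protein-coding gene it came to 7487, 5410 and 4451 bp. With glucose 57 Zfp genes had more peaks than in the control, 18 had fewer and 42 the same number. With sh-METTL3 the counts were 43, 22 and 52. The same gene counts were not made for other protein-coding genes. Their peaks per gene were also above the control, at 2.19 with glucose and 1.78 with sh-METTL3 against 1.64. The part of peak splitting and of the weaker p-values in those counts was not tested.

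A peak stood in all 3 lists for 109 genes and in none for 2, Zfp706 and Zfp414, which averaged 15.4 and 7.43 FPKM, the first of them among the 10 most abundant. Zfp469 had 10 peaks with glucose, 11 with sh-METTL3 and 6 in the control, of which 9, 7 and 3 lay in coding exons. Zfp865 had 10, 7 and 9 peaks, the most in the control list, and Zfp462 had 9, 7 and 7. Zfp507 and Zfp704 each had 9 with glucose, where 5 and 7 were listed with sh-METTL3 and 4 and 6 in the control. Zfp646 led the rest of the sh-METTL3 list with 8 peaks beside Zfp292 with 8. In the control list Zfp462, Zfp646, Zfp91 and Zfp697 had 7 each. Entries that overlap within a list, as for Zfp91 and Zfp865 in the control list, were counted as separate peaks.

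Fold enrichment, which the authors computed from pulled-down over input RNA, is described within each list. The median over Zfp peaks was 5.41 with glucose, 5.99 with sh-METTL3 and 6.94 in the control, against 4.02, 4.59 and 4.78 over peaks of other protein-coding genes. Zfp326, a member of the DBIRD complex that links transcription to splicing, led every list, with a 3′ UTR peak of 109, 329 and 156. After it came Zfp787 at 52.3 and Zfp462 at 39.6 in the glucose list, Zfp865 at 60.1 and Zfp768 at 46.8 in the sh-METTL3 list, and Zfp260 at 71.8 and Zfp57 at 58.4 in the control list. The Zfp57 peak was labelled 3′ UTR and the Zfp260 peak, 5522 bp long, was labelled 5′ UTR. The KRAB genes Zfp282 and Zfp317 were also among the 5 strongest of a list, at 29.0 with glucose and 48.3 in the control for Zfp282 and at 37.5 with sh-METTL3 for Zfp317, as was Zfp91 at 39.5 with sh-METTL3.

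Along the transcript, Zfp peaks were more often labelled as coding exon than peaks of other protein-coding genes. Each peak carries 1 place label, though a long peak can span several places. A Zfp1 peak labelled 5′ UTR in the control list ran over 26473 bp, introns included. The shares below rest on those labels. The share in coding exons was 28.8% with glucose, 32.6% with sh-METTL3 and 25.7% in the control, against 20.0%, 20.4% and 18.9%. Wilson intervals for the Zfp shares were 24.5% to 33.6%, 27.8% to 37.9% and 21.1% to 30.8%, and none reached the share of the other genes. Among genes under a mean of 10 FPKM the shares were 29.1%, 33.1% and 25.6% for Zfp genes and 21.4%, 22% and 20.4% for other genes. The 3′ UTR held 50.0%, 47.3% and 49.0% of Zfp peaks against 54.1%, 56.9% and 59.4% of the others. As background, KRAB zinc finger genes commonly encode their whole finger array in a single long last exon.

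The 35 KRAB genes without SCAN had few peaks in the 5′ UTR by the deposited labels. Of their peaks 8 of 94 with glucose, 4 of 91 with sh-METTL3 and 9 of 87 in the control lay there, or 8.51%, 4.4% and 10.3%. In the other 82 Zfp genes, the 2 with KRAB and SCAN entries among them, the shares were 22.2%, 23.6% and 28.6%, with Wilson intervals of 17.7% to 27.4%, 18.7% to 29.4% and 23.0% to 34.9%. The interval for the 35 genes was 4.38% to 15.9% with glucose, 1.72% to 10.8% with sh-METTL3 and 5.54% to 18.5% in the control. The intervals of the 35 and the 82 genes did not meet in any list. Other protein-coding genes had 19.9% with glucose, 18.2% with sh-METTL3 and 17.3% in the control. In the control list that share lay inside the interval of the 35 genes and below that of the 82. Peaks of 1 gene are not independent, and the lists share genes, so these intervals are too narrow.

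**Figure D3:**
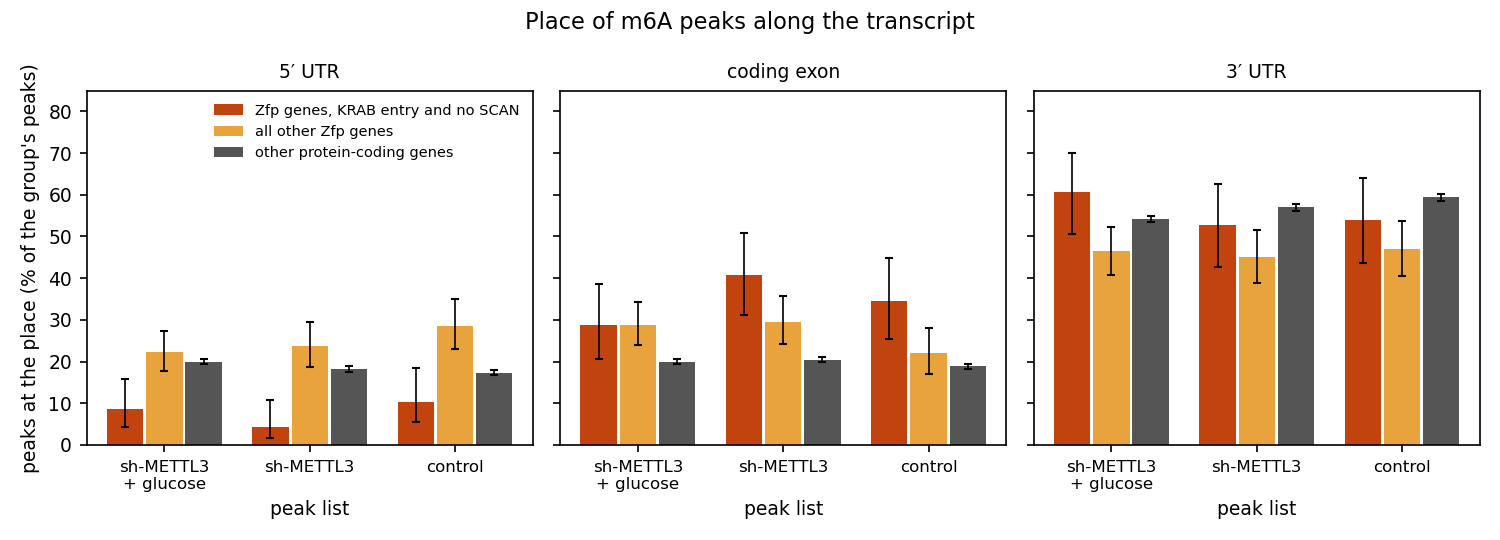
Share of peaks (vertical axis, % of the peaks of each group) in the 5′ UTR, coding exons and 3′ UTR in the 3 peak lists, for 35 Zfp genes with a KRAB entry and no SCAN, the other 82 Zfp genes and 8273 other protein-coding genes; error bars are 95% Wilson intervals over peaks. The 35 genes have the lowest 5′ UTR share in every list, at 8.51%, 4.4% and 10.3%.

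Most peaks recurred between conditions at an overlap of at least 1 bp. Of the 378 glucose peaks 79.4% overlapped a sh-METTL3 peak and 80.2% a control peak. Of the 328 sh-METTL3 peaks 89.3% overlapped a glucose peak and 88.4% a control peak, and of the 304 control peaks 88.8% and 86.2% overlapped glucose and sh-METTL3 peaks. For other protein-coding genes the shares in the same order were 72.1% and 67.7% of glucose peaks, 89.7% and 81.1% of sh-METTL3 peaks, and 89.9% and 86.7% of control peaks. The Zfp share was thus above that of other genes for glucose peaks and for sh-METTL3 peaks found in the control. In the other 3 cases it was slightly below, inside the Wilson intervals of the Zfp shares. Those intervals treat peaks as independent, which peaks of 1 gene are not. Requiring a reciprocal overlap of 50% lowered the Zfp shares to between 43.7% and 62.8%.

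Differential peaks come from the authors' deposited tables, which list peaks with an unadjusted p under 0.05, and calls here use an adjusted p under 0.05. In the authors' deposited table of glucose against control, Zfp genes had 115 called peaks, 26 higher and 89 lower (77.4% lower). Of these, 7 overlapped another of the 115. Over all genes 44.5% of the called peaks in that deposited table were lower, and over other protein-coding genes 39.8%. Of the 115 Zfp genes with a peak in either list, the authors' deposited table gave 58 lower peaks alone, 14 higher peaks alone and 9 both. For other protein-coding genes 52.4% had a called peak, and their lower-only share was 20.1%, against 50.4% of the Zfp genes. The 35 KRAB genes without SCAN had 25 of 30 called peaks lower in that deposited table and the other 82 Zfp genes 64 of 85. In other zinc finger families of the authors' deposited table, 14 of 18 called Zbtb peaks, 9 of 9 Zkscan peaks and 8 of 11 Klf peaks were lower. The authors' test and its handling of the 2 replicates are not stated.

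The lowest peak was a coding-exon peak of Zfp993, with a log2 fold change of -1.49 (adjusted p = 0.00030) in the authors' deposited table of glucose against control. Zfp217 carried 3 lower peaks there, at -1.40 in its 5′ UTR and at -1.24 and -0.59 in coding exons, while its RNA stood above the control. The 3′ UTR peak of Zfp276 was at -1.40 (adjusted p = 1.3e-11) in that deposited table. A 3′ UTR peak of the KRAB gene Zfp12 was at -1.36, a coding-exon peak of Zfp292 at -1.32 and a 3′ UTR peak of the KRAB gene Zfp426 at -1.32, again in the authors' deposited table. Lower peaks thus fell in coding exons and both UTRs. By place, the authors' deposited table had 11 of 16 Zfp peaks lower in the 5′ UTR, 28 of 35 in coding exons and 50 of 64 in the 3′ UTR. Among other protein-coding genes the same places had 24.0%, 36.3% and 45.8% lower in that deposited table.

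The highest peak was a 3′ UTR peak of Zfp652, at a log2 fold change of 3.20 (adjusted p = 0.014) over 152 bp in the authors' deposited table of glucose against control. It overlapped no control peak. Zfp53, Zfp395, Zfp9 and Zfp930 followed in that deposited table at 1.67, 1.62, 1.58 and 1.57. Of these, the Zfp930 peak had the smallest adjusted p, 2.0e-25, in the authors' deposited table, while Zfp930 RNA was at 1.31 FPKM with glucose and 3.18 in the control.

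**Figure D4:**
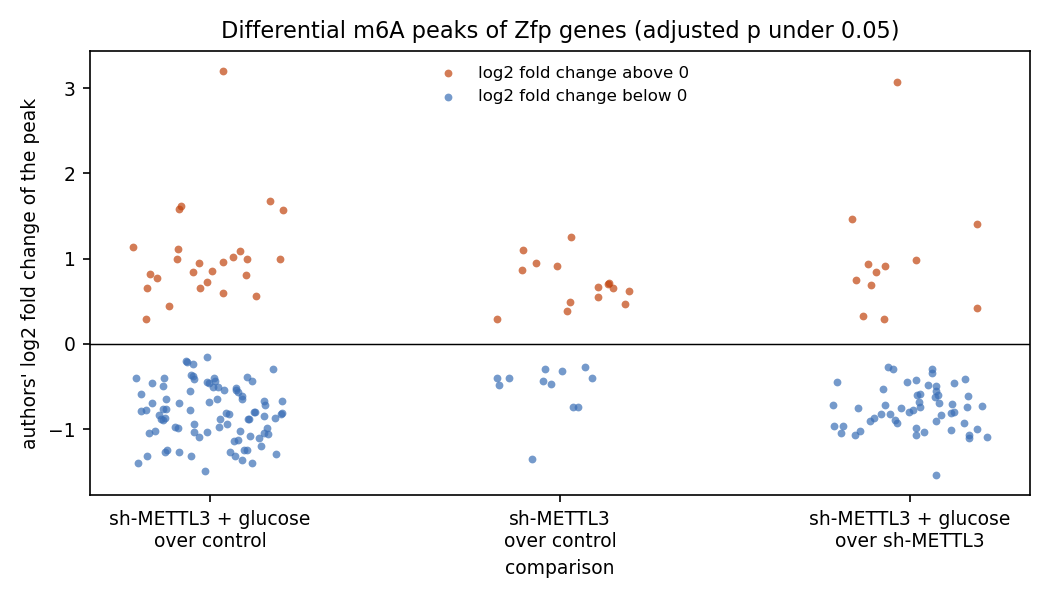
Authors' log2 fold change (vertical axis) of each differential m6A peak of a Zfp gene at an adjusted p under 0.05, in the 3 comparisons, with points spread sideways for legibility. Lower peaks are 89 of 115 for glucose over control, 12 of 27 for sh-METTL3 over control and 55 of 67 for glucose over sh-METTL3, and 1 peak of Zfp652 stands alone above 3 in both glucose comparisons.

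The direction of a called peak moved with its enrichment in the control list, in Zfp genes and others alike. In the authors' deposited table of glucose against control, Zfp peaks were lower in 1 of 11 where the overlapping control peak was enriched under 3-fold, in 8 of 14 from 3 to 6, in 26 of 27 from 6 to 12 and in 54 of 55 at 12 or more. All 8 without an overlapping control peak were higher in that deposited table. Other protein-coding genes had 5.56%, 29.4%, 72.7% and 87.4% lower over the same 4 classes of the authors' deposited table. That enrichment also enters the difference it is set against, so the quantities are not independent. Within the class from 6 to 12 the Zfp share lower was 96.3% (Wilson interval 81.7% to 99.3%), and it was 98.2% (90.4% to 99.7%) at 12 or more. Both intervals treat peaks as independent, which peaks of 1 gene are not. RNA level moved with direction too: by the authors' deposited table, Zfp peaks were lower in 82.9%, 85.4%, 69.6% and 33.3% of calls for genes of mean 2 to 3, 3 to 5, 5 to 10 and at least 10 FPKM, and peaks of other genes in 68.0%, 58.3%, 43.6% and 24.7%. The part of enrichment and RNA level in the Zfp skew was not tested.

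**Figure D5:**
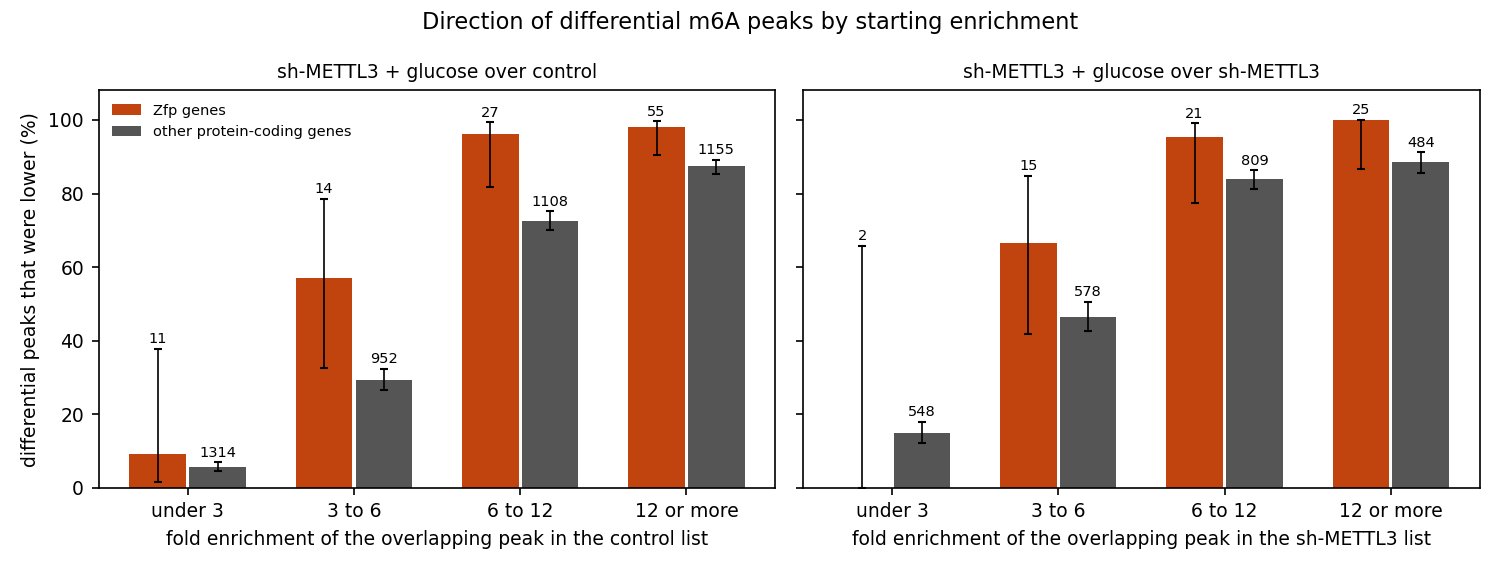
Share of called differential peaks that were lower (vertical axis, %) by fold enrichment of the overlapping peak in the control list (left) or the sh-METTL3 list (right), for Zfp genes and other protein-coding genes; error bars are 95% Wilson intervals, numbers are called peaks, and peaks with no overlapping peak are left out. The share climbs with enrichment in both groups, to 98.2% and 87.4% in the top class for glucose over control and to 100% and 88.6% for glucose over sh-METTL3.

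In the authors' deposited table of glucose and sh-METTL3, with its sign turned to glucose over sh-METTL3, Zfp genes had 67 called peaks, 12 higher and 55 lower (82.1% lower). All genes had 54.4% lower in that deposited table and other protein-coding genes 51.5%. It gave 40 of 115 Zfp genes (34.8%) lower peaks alone and 12 (10.4%) higher peaks alone. Among other protein-coding genes with a peak 30.8% had a call in that deposited table, 15.2% lower alone and 14.2% higher alone. The lowest peak in the deposited table was in coding exons of Zfp526, at -1.54 (adjusted p = 0.00026), followed by Zfp276 at -1.10, Zfp12 at -1.09 and Zfp251, Zfp553 and Zfp865, each at -1.07. Zfp652, Zfp53, Zfp655, Zfp9 and Zfp512 were the highest in the authors' deposited table, at 3.07, 1.46, 1.40, 0.98 and 0.94. The 3′ UTR peak of Zfp36 was at -0.34 (adjusted p = 8.1e-07) in that deposited table and at -0.22 (adjusted p = 2.9e-05) in the one against the control. That of Zfp207 was higher in both deposited tables, at 0.29 against sh-METTL3 and at 0.57 against the control. These comparisons share the glucose samples, so they are not independent of each other.

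Far fewer Zfp peaks were called for sh-METTL3 against control. The authors' deposited table had 27, with 15 higher and 12 lower (44.4% lower), where 23.9% of the called peaks of all genes and 20.4% of those of other protein-coding genes were lower. By gene the deposited table gave 10 higher alone, 10 lower alone and 1 both, of 113 with a peak, where 21.3% of other protein-coding genes with a peak had a call. The lowest in the authors' deposited table were a 5′ UTR peak of Zfp516, a transcription factor of brown fat, at -1.35 (adjusted p = 0.015), and peaks of Zfp617 and Zfp276, both at -0.74. Zfp618 and Zfp275 followed in that deposited table at -0.48 and -0.47. Highest in the deposited table were Zfp367 at 1.25 (adjusted p = 0.00013), Zfp91 at 1.10, Zfp395 at 0.94, Zfp664 at 0.91 and Zfp219 at 0.86. The Zfp57 3′ UTR peak, the strongest of that gene, was at -0.44 in this deposited table and at -0.79 in that of glucose against control. Zfp91 supplied 4 of the 15 higher peaks, and without it the counts in the authors' deposited table were 11 higher and 12 lower. Of the 27 called peaks in that deposited table, 3 overlapped another of them.

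RNA ratios of Zfp genes can be set beside their peak calls. For glucose over control, the 58 genes with lower peaks alone in the authors' deposited table had a median RNA log2 ratio of 0.68, the 14 with higher peaks alone 0.24 and the 34 with none called 0.21. Of those 58 genes 18 were at least 2-fold higher in RNA and 0 lower. Of the 1515 other protein-coding genes with lower peaks alone, 305 were higher and 22 lower. Other protein-coding genes had medians of 0.53, 0.07 and 0.22 in the same 3 classes of the deposited table. Genes with both lower and higher peaks had medians of 0.69 for 9 Zfp genes and 0.28 for 320 others. For sh-METTL3 over control the medians were 0.93 for 10 Zfp genes with lower peaks alone and 0.53 for 10 with higher peaks alone. The 92 Zfp genes with none called there also had 0.53. Other protein-coding genes had 0.30 with lower peaks alone, 0.23 with higher peaks alone and 0.19 with none called. For glucose over sh-METTL3 the medians were 0.03 for 40 Zfp genes with lower peaks alone, -0.09 for 12 with higher peaks alone and -0.12 for 63 with none called. In those classes other protein-coding genes had 0.082, -0.005 and 0.056. A fold enrichment has input RNA as its divisor, and it is not stated whether the RNA libraries were that input.

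Peaks at gene starts can be read at the level of sequence. In the authors' deposited table of glucose against control, 10 called Zfp peaks began within 100 bp of the gene's start, 5 higher and 5 lower, against 73.8% higher among other protein-coding genes. The windows below show the start of 7 of these genes, those with the lowest peak first, and the other 3 starts are not shown. Each window is the first 30 bases of the gene or, where these hold no DRACH motif, a later 30 bases that do. DRACH is the consensus of Mettl3, in which D is any base but C, R is a purine and H is any base but G, and capitals mark its matches on the gene's strand. Each window was placed to hold a match, which describes the letters and is not a methylated site.
Zfp830: AGACTcgcctgagtcctgggcgcAAACAtg
Zfp281: tggtccggtcgaGGACTtcccggcAGACAc
Zfp622: gcgagtcggaagttccctcacttaGAACTc
Zfp263: gaagtccgtccTGACTagcggccgttggct
Zfp512: tgttcaGAACAgggttagtcgccgctgaga
Zfp655: cgagagagtggccccGGACAggctggtgca
Zfp53: gagTGACCagcagggatactgagatgcaat
These are chr11:82764345-82764374 for Zfp830, chr1:136624915-136624944 for Zfp281, chr15:25984366-25984395 for Zfp622, chr16:3744093-3744122 for Zfp263, chr5:31452431-31452460 for Zfp512, chr5:145231745-145231774 for Zfp655 and chr17:21488998-21489027 for Zfp53, all on the plus strand, in RefSeq sequence of GRCm38.p6. The called peaks began within 100 bp of these gene starts and need not cover the windows. Their log2 fold changes were -0.76, -0.70, 0.44, 0.65, 1.00, 1.14 and 1.67 in that order in the authors' deposited table. Both lower peaks shown were annotated as 3′ UTR and all 5 higher ones as 5′ UTR. Of 90 Zfp genes matched to a RefSeq promoter, 41.1% held a DRACH match in the first 50 bases, against 45.6% of other protein-coding genes and 58.6% of all promoters of that table.

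Promoters offered a second sequence shared by a few Zfp genes. Zfp143, a promoter activator that had 8.21 FPKM with glucose, 7.19 with sh-METTL3 and 4.57 in the control, binds a long promoter site. Among 8 motifs searched on both strands in 300 bases around the start (250 before and 50 after), the core of the Zfp143 site stood in 3 of 90 Zfp promoters (3.33%), in 0.840% of promoters of other protein-coding genes and in 0.322% of all promoters. The windows of the 3 genes are shown because they hold the whole core, in capitals, on the opposite strand in Zfp1 and Zfp180.
Zfp1: ggcattatgGGAATTGTAGTcctacacctc
Zfp180: agagttctgGGAATTGTAGTtccattgagc
Zfp692: ctaaggctaACTACAATTCCcggcaggctt
They lie at chr8:111643409-111643438, chr7:24081866-24081895 and chr11:58307012-58307041 of GRCm38.p6, plus strand. Zfp1 had 4.69 FPKM with glucose, 8.01 with sh-METTL3 and 2.42 in the control, Zfp180 had 8.17, 6.48 and 6.75 FPKM, and Zfp692 had 5.62, 5.17 and 12.2 FPKM. The 3 genes with the core did not share an order of libraries. The other motifs were the ETS core CCGGAAG, the NRF1 site, the CRE TGACGTCA, the GC box GGGCGG, the CCAAT box, the TATA box searched as TATAAA and the E-box CACGTG. The commonest of them in Zfp promoters, the GC box, stood in 64.4% of these and in 74.2% of other protein-coding promoters.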

How the data were processed

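The RNA table was deposited with whole-number counts and FPKM per gene, 1 column of each per condition, per the file headers. The deposited peak lists hold, per peak, fold enrichment (a ratio) and the logarithms of p and adjusted p as a score. The authors' differential tables give a log2 fold change, a p-value and an adjusted p-value. The submitters' processing notes list edgeR 4.1, HOMER 4.10, StringTie 2.1.2, HISAT2 2.0.4 and fastp 0.19.4 with no roles, and the human build GRCh38. The peak caller was not given in the sources used here. All 117 Zfp genes overlapped the RefSeq gene of that symbol on mouse GRCm38.p6, 101 within 100 bp of an end, so coordinates are given on that build. Deposited peak starts count from 0, and 1 was added. Libraries are strand-marked per the labels' protocols, but the counting setting is not stated, and 12 Zfp genes overlap an opposite-strand gene, whose reads may not be separable. Per-sample columns left unused numbered 0.

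As designed, RNA was compared without a test: log2 ratios with 1 added to FPKM, counted at an absolute value of at least 1, and ratios of count shares with exact binomial 95% intervals. Depth was 52807701 to 54282720 counts. The calculation was tested on simulated data. Signs of the differential tables were checked against ratios of the listed enrichments, which 88.2%, 88.8% and 86.8% of peaks in both lists matched for glucose over control, sh-METTL3 over control and glucose over sh-METTL3. Named genes are the 8 highest and 8 lowest per comparison, the 10 of highest mean FPKM, the 3 on either side of the minimum, the 5 with most peaks and the 5 of highest enrichment per list, the 5 highest and lowest differential peaks per table, genes with no peak, and Zfp genes of known role. Other genes named, and the sequence windows, were chosen after their values were seen. Genes and lists were chosen with earlier results of these data known. Python 3.11.15, pandas 2.3.3, numpy 2.4.6 and scipy 1.17.1 were used, with other pseudocounts, scalings, FPKM minimums, peak thresholds and overlaps as alternatives. Sequence windows and motif searches used RefSeq promoter sequences of GRCm38.p6, and no protein sequence was used here.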

Additional observations from a re-analysis of the deposited data

How the results depend on the processing

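Of 153 values recomputed under alternatives, 97 kept their direction and stayed within the tolerance, 55 moved and 1 turned sign. No paired analysis was possible because the RNA table holds 1 column per condition and there is a single peak list for each. Leaving out replicates was not run for that reason. Setting Zfp91 aside and keeping genes under 10 FPKM were chosen after seeing the data. For RNA of glucose over control, a pseudocount of 0.1 gave 5 lower and a median of 0.53. The median of ratios gave 8 lower, counts scaled by depth gave 5 lower and a median of 0.55, and subtracting the all-gene median gave 15 higher and a median of 0.26. At a minimum of 5 FPKM there were 2 higher of 37, 1 lower and a median of 0.24, and 39 were higher with no minimum. For sh-METTL3 over control, lower genes numbered 5 at pseudocount 0.1 and 7 with the median of ratios, and the median was 0.65 for counts scaled by depth. A minimum of 5 FPKM left 4 higher of 37 and a median of 0.34, and no minimum gave 66 higher. For glucose over sh-METTL3, 1 gene was higher at pseudocounts 0.1 and 0.5, with the median of ratios and for counts scaled by depth. Lower genes numbered 11 with the median of ratios and 3 at 5 FPKM, where the median turned to 0.012. The cause was not tested, and fewer genes enter at 5 FPKM. Genes with a peak of at least 4-fold and adjusted p under 0.001 were 82.1% with glucose, 82.9% with sh-METTL3 and 85.5% in the control, and with no FPKM minimum 86.4%, 88.2% and 86.7% had a peak. At 5 FPKM the 5′ UTR and coding exon shares were 27.4% and 24.2% with glucose and 23.2% and 25.6% with sh-METTL3. With no minimum the 5′ UTR shares were 14.7%, 12.4% and 16.0% in the 3 lists, and the sh-METTL3 coding exon share 39.6%. Under the strict peak threshold the 3′ UTR held 53.0% with sh-METTL3 and 55.1% in the control. In the authors' deposited tables, 5 FPKM left 13 higher and 19 lower peaks for glucose over control, 3 lower for sh-METTL3 over control, and 5 higher and 13 lower for glucose over sh-METTL3. An adjusted p under 0.01 left 6 lower for sh-METTL3 over control and 7 higher for glucose over sh-METTL3, and an unadjusted p gave 29 higher and 24 lower for sh-METTL3 over control. At 50% reciprocal overlap, 43.7% of glucose peaks lay in the sh-METTL3 list and 48.9% in the control list, 50.3% and 57.9% of sh-METTL3 peaks in the glucose and control lists, and 61.2% and 62.8% of control peaks in the glucose and sh-METTL3 lists. Among peaks with an adjusted p under 0.05, 83.7% of glucose peaks lay in the sh-METTL3 list. Single libraries limit every RNA value.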
